A study of Rattus norvegicus with 32 samples.

Results

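The genes described are 6 members of the complement system, C1qa, C1qb, C1qc, C4a, C3 and C3ar1, in the hippocampus of a rat model of Alexander disease. They were chosen by name, as components of the early and central part of the complement cascade and the receptor for the C3a fragment, and all 6 were found among the 23822 genes of the expression tables. The tables hold identifiers alone, so a gene could be a member only if the study's tables of results, which are sorted by FDR and were held here in shortened form, paired its symbol with an identifier, and a gene that changed was more likely to be paired. Their identifiers there are ENSRNOG00000012807 (C1qa), ENSRNOG00000012749 (C1qb), ENSRNOG00000012804 (C1qc), ENSRNOG00000066573 (C4a), ENSRNOG00000046834 (C3) and ENSRNOG00000009211 (C3ar1). Alexander disease is caused by dominant mutations of GFAP, the intermediate filament protein of astrocytes, and R237H rats (Gfap+/R237H) carry a missense mutation in 1 copy of their own Gfap gene on the Crl:CD(SD) strain background. Hippocampal RNA was sequenced from R237H rats and WT littermates of both sexes at P21, when the model is presymptomatic, and at P56, when the rats are severely affected. At P21 there were 4 R237H and 4 WT males and 5 R237H and 3 WT females, and at P56 each sex had 4 rats per genotype. Each library came from 1 rat. The mutation is in the germ line, no treatment is named for any group, and whole hippocampus was used, so a transcript cannot be assigned to a cell type. The labels give 5 R237H and 3 WT females at P21 where the methods plan equal groups. A figure legend of the study gives the same numbers as the labels, and Gfap separated those rats as labelled.

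Complement is a cascade of plasma and tissue proteins that tag cells and debris for removal. C1q, a complex of the chains encoded by C1qa, C1qb and C1qc, starts the classical pathway; C4 is cleaved next and helps to form the enzyme that cleaves C3; C3 is the point where all pathways meet, and its fragment C3a signals through the receptor C3ar1. In brain, C1q is made mainly by microglia, C3 and C4 are made by reactive glia, and C1q and C3 are known for tagging synapses that microglia remove.

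Depth was counted as the total of expected counts per library, which are RSEM's estimates of reads per gene and need not be whole. Totals, to 6 significant digits, ran from 21580400 to 55544900 with a median of 46157300, and 2 libraries, R237H male replicate 3 at P21 and R237H male replicate 4 at P56, had fewer than 30000000 while the others had at least 38503700. Gfap, the mutated gene, separated the genotypes at both ages, with log2 fold changes of 2.53 to 2.89 in the 4 comparisons, and no WT rat reached the level of any R237H rat of its sex and age. Choroid plexus transcripts, which come from tissue next to the hippocampus, varied between libraries. The 7 measured markers of choroid plexus summed to over 100 TPM (RSEM's level of a gene per transcript length) in 6 of the 32 libraries, 3 R237H and 3 WT, and to 6203 TPM in WT male replicate 2 at P56. Several results are also given without these 6 libraries. P21 and P56 rats were different animals, and whether they were collected and sequenced together is not stated, so an effect of age and one of collection cannot be told apart, and each comparison of genotypes stays within an age.

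All 6 genes increased in R237H rats in both sexes and at both ages, and in each of the 24 comparisons of a gene every R237H rat was above every WT rat. The test was edgeR's quasi-likelihood F-test on rounded counts with a Benjamini-Hochberg false discovery rate (FDR) over all genes tested, and a gene was called at an FDR under 0.01. By that rule 16.8% of all genes tested increased in P56 males, 17.0% in P56 females, 12.4% in P21 males and 7.06% in P21 females. Non-overlap with R237H above WT was itself common, at 24.2%, 22.2%, 17.1% and 14.6% of all genes in the same order. Because a gene that changed was more likely to qualify as a member, nothing is read from 6 of 6 against these shares. The median log2 fold change of the 6 genes was 3.496 in P56 males, 3.45 in P56 females, 2.204 in P21 males and 2.52 in P21 females, while the median of all genes tested lay between -0.03 and -0.01. In whole tissue, more cells of a type and more RNA per cell cannot be told apart.

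**Figure D1:**
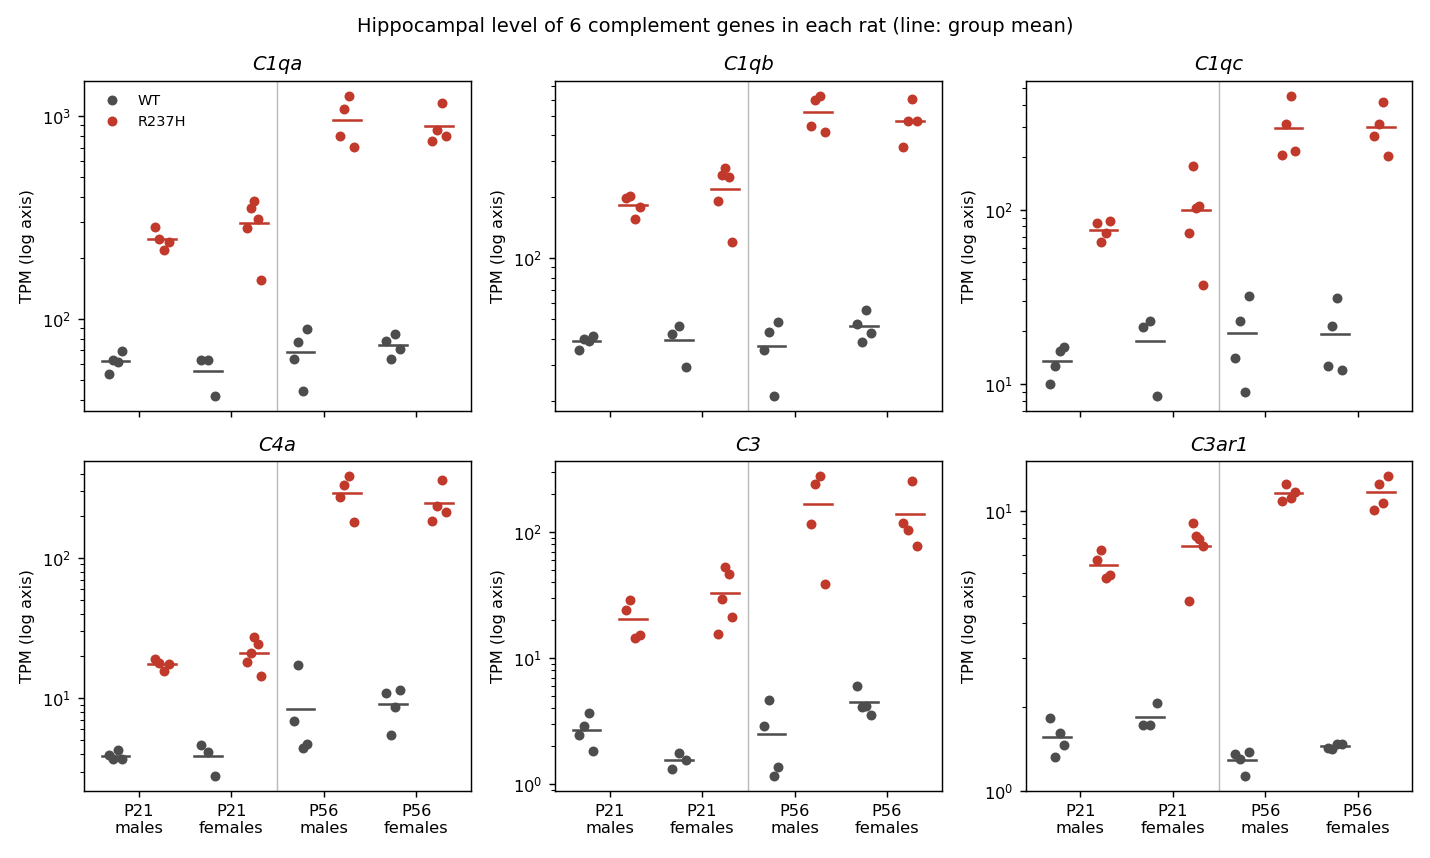
TPM of each of the 6 genes in each of the 32 rats (points, log axis), by age and sex, with WT in grey, R237H in red and a line at each group mean. Every red point lies above every grey point of its sex and age, and C3 has the widest spread among R237H males at P56, from 38.9 to 276 TPM.

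C1q, the recognition complex that starts the classical pathway, needs all 3 of its chains, and their genes lie side by side on rat chromosome 5 with no other annotated gene between them. C1qb encodes the B chain. In males at P56 it measured 35.3, 43.4, 21.04 and 48.3 TPM in the WT rats and 447, 594, 625 and 417 TPM in the R237H rats. In females at P56 it measured 47.7, 38.9, 55.7 and 42.8 TPM in WT and 351, 471, 602 and 470 TPM in R237H rats. The lowest R237H rat at P56 was thus well above the highest WT rat, and the group means stood 14.1-fold apart in males and 10.2-fold apart in females. C1qb thus had a log2 fold change at P56 of 3.43 ± 0.22 (SE) in males (edgeR FDR = 3.07e-06) and 3.04 ± 0.15 in females (FDR = 3.88e-07).

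At P21 the genotypes were already apart for C1qb. WT males measured 35.2, 40.3, 39.01 and 41.6 TPM and R237H males 197, 202, 155 and 177 TPM. WT females measured 42.6, 46.7 and 29.3 TPM and R237H females 191, 255, 277, 249 and 121 TPM. WT levels of C1qb were thus alike at the 2 ages, with means of 37.0 to 46.3 TPM over the 4 WT groups, and the R237H mean was 2.85 times higher at P56 than at P21 in males and 2.17 times higher in females. R237H female replicate 5 was the lowest of its group, and no group overlapped the other genotype. In the test at P21 its log2 fold change was 2.24 ± 0.09 in males (edgeR FDR = 7.17e-09) and 2.54 ± 0.28 in females (FDR = 1.77e-04).

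C1qa, which encodes the A chain, was the most abundant of the 6 genes. It ranged from 44.0 to 89.3 TPM over the 8 WT rats at P56 and from 705 to 1256 TPM over the 8 R237H rats. By mean TPM it ranked 1762 of 23822 genes in WT males at P56 and 69 in R237H males. Its log2 fold change was 3.41 ± 0.24 in males at P56 (edgeR FDR = 5.17e-06), 3.29 ± 0.16 in females at P56 (FDR = 3.05e-07), 2.01 ± 0.10 in males at P21 (FDR = 3.53e-08) and 2.48 ± 0.29 in females at P21 (FDR = 2.41e-04).

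C1qc, which encodes the C chain, varied most between rats of a group among the 3. Its coefficient of variation was 51.6% in WT males and 46.3% in WT females at P56, against 32.2% and 15.6% for C1qb. It ranged from 8.97 to 31.7 TPM in WT rats and from 203 to 449 TPM in R237H rats at P56. The log2 fold change was 3.56 ± 0.39 in males (edgeR FDR = 7.36e-05) and 3.61 ± 0.35 in females (FDR = 2.31e-05) at P56, and 2.48 ± 0.15 in males at P21 (FDR = 1.65e-07). In females at P21 it was 2.55 ± 0.52 with an FDR of 0.00761, close to the threshold. That call was lost in 8 of 17 alternative settings, with FDR up to 0.0296. Without the 2 libraries of that comparison with over 100 TPM of choroid plexus markers, R237H replicate 2 and WT replicate 3, it was 1.81 with an FDR of 0.0147.

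The 3 chains were compared with each other within libraries. Over the 32 rats, deviations from the 8 group means correlated at 0.95 between C1qa and C1qb, at 0.87 between C1qa and C1qc and at 0.86 between C1qb and C1qc (Pearson, log2 normalized counts). These are descriptions, since the values share libraries and depth. The log2 ratio of C1qa to C1qb within a library differed between the genotypes by 0.10 ± 0.06 at P56 (R237H minus WT, mean of the sexes, exact permutation p = 0.175) and by -0.14 ± 0.04 at P21 (exact permutation p = 0.0105). The log2 ratio of C1qc to C1qb differed by 0.40 ± 0.20 at P56 (exact permutation p = 0.0767) and by 0.12 ± 0.19 at P21 (exact permutation p = 0.511). These 4 tests belong to a family of 14, and the Benjamini-Hochberg value of the P21 difference between C1qa and C1qb was 0.0183. In that ratio the P21 males and the P56 females had the genotypes apart, while the P21 females and the P56 males overlapped. The log2 ratio of C1qc to C1qb overlapped between the genotypes in each sex and age, and at P56 it ran from -1.56 to -0.13 over the 16 rats.

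The stretches before the starts of C1qa and C1qb are shown because these neighbouring genes moved together. They are the 250 bases upstream of the RefSeq start in GRCr8, chr5:154419934-154420183 (minus strand) and chr5:154407828-154408077 (minus strand), and capitals mark matches to the 5 motifs searched on both strands. The motifs were STAT (TTCNNNGAA), C/EBP (TTGCNNAA), the PU.1 core (GAGGAA), an interferon response element motif (GAAANNGAA) and the consensus of NF-kappa B.
C1qa: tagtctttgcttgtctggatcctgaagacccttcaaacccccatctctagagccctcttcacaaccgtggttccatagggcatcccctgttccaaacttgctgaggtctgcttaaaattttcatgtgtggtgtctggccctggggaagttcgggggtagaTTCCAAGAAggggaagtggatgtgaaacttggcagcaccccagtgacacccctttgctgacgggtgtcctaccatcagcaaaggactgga
C1qb: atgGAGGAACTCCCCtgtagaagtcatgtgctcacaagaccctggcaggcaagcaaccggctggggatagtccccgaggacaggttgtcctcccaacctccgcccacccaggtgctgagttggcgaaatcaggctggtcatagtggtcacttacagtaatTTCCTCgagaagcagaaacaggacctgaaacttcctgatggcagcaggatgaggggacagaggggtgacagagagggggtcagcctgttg
The C1qa stretch held 1 STAT match, at -90 to -82 from the start, and such a match was present in 7.67% of the 33469 promoters of that length. The C1qb stretch held 2 PU.1 matches, present in 23.3% of promoters, and 1 NF-kappa B match, present in 6.33%, which overlaps the first PU.1 match. No motif was shared by both stretches. A match describes these letters and is not evidence of binding.

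C4a encodes complement component C4, which C1-associated proteases cleave right after C1q binds. In males at P56 it measured 6.85, 17.3, 4.43 and 4.71 TPM in WT rats and 274, 331, 382 and 182 TPM in R237H rats. In females at P56 it measured 10.9, 5.44, 8.61 and 11.5 TPM in WT and 185, 235, 362 and 213 TPM in R237H rats. The groups were far apart, with means 35.1-fold apart in males and 27.3-fold apart in females, and the highest WT male was replicate 2, the library with the most choroid plexus RNA. For C4a at P56 the log2 fold change was 4.83 ± 0.41 in males (edgeR FDR = 1.56e-05) and 4.47 ± 0.27 in females (FDR = 9.06e-07). In males it was 5.50 without the 2 libraries of that comparison with over 100 TPM of choroid plexus markers, WT replicate 2 and R237H replicate 4.

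At P21 C4a was much lower in R237H rats than at P56. WT males measured 3.94, 3.70, 4.28 and 3.69 TPM and R237H males 19.1, 17.9, 15.6 and 17.6 TPM. WT females measured 4.67, 4.14 and 2.77 TPM and R237H females 18.1, 20.95, 27.4, 24.3 and 14.4 TPM. Within each genotype the rats lay close together, and the highest R237H rat at P21 (27.4 TPM) was below the lowest at P56 (182 TPM). The R237H mean was 16.7 times higher at P56 than at P21 in males and 11.8 times higher in females, and the WT mean 2.13 and 2.36 times higher. Its log2 fold change at P21 was 2.17 ± 0.08 in males (edgeR FDR = 5.60e-09) and 2.501 ± 0.23 in females (FDR = 6.00e-05).

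C4b, a second C4 gene on the same chromosome, shares sequence with C4a, and reads from one can be assigned to the other. The stretches before their starts in GRCr8, chr20:4010107-4010305 (plus strand) and chr20:4201729-4201978 (plus strand), are shown for this likeness (199 and 250 bases, ending at the annotated start of each gene), with a PU.1 match in capitals.
C4a: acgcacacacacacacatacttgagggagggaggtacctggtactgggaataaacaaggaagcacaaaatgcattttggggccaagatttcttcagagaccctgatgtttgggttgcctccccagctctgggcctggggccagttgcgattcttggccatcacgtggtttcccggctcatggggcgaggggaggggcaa
C4b: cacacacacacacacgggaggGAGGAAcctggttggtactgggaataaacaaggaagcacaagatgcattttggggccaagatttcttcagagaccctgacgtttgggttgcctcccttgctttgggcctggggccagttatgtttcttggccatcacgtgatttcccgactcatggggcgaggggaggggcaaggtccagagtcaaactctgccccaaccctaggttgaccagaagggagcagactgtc
Over the 300 bases of each table entry, 279 of 291 aligned bases (95.9%) were identical. C4b took 1.78% to 8.54% of the expected counts of the pair, and its own log2 fold change was 3.51 in males and 3.38 in females at P56 and 2.29 and 2.78 at P21, with all 4 at an edgeR FDR under 0.01. With the counts of the pair added, the log2 fold change of C4 was 4.77 in males and 4.42 in females at P56 and 2.18 and 2.51 at P21, so the split between the copies moved it by little.

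C3, the component that every activation pathway cleaves, had the largest fold change of the 6 in each of the 4 comparisons. In males at P56 it measured 2.89, 4.66, 1.15 and 1.37 TPM in WT rats and 117, 239, 276 and 38.9 TPM in R237H rats. In females at P56 it measured 6.02, 4.09, 4.14 and 3.56 TPM in WT and 117, 105, 254 and 77.0 TPM in R237H rats. R237H males were spread from 38.9 to 276 TPM, the lowest being replicate 4, the shallow library with 799 TPM of choroid plexus markers, and that rat too was above every WT rat. Without it and WT replicate 2 the log2 fold change in males was 6.47. For C3 at P56 the log2 fold change was 5.77 ± 0.66 in males (edgeR FDR = 9.28e-05) and 4.66 ± 0.38 in females (FDR = 6.71e-06). In males at P56, 38 of 15097 genes tested had a larger log2 fold change.

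At P21 C3 was already high in R237H rats. WT males measured 2.43, 2.88, 3.68 and 1.83 TPM and R237H males 24.0, 28.9, 14.4 and 15.2 TPM. WT females measured 1.31, 1.76 and 1.56 TPM and R237H females 15.6, 29.2, 53.1, 46.1 and 21.03 TPM. The groups did not overlap in either sex, and R237H females reached higher values than R237H males while WT females lay below WT males. The log2 fold change at P21 was 2.94 ± 0.25 in males (edgeR FDR = 3.63e-06) and 4.47 ± 0.42 in females (FDR = 6.39e-05). The difference of these, tested as an interaction of sex and genotype over 16 rats, was -1.52 ± 0.48 (males minus females), with an unadjusted p of 0.00549 and an edgeR FDR of 0.999877. Males and females at P21 shared no number in their sample titles. A difference between the sexes and one between title numbers thus cannot be told apart at that age.

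The 250 bases before the C3 start in GRCr8, chr9:2201340-2201589 (minus strand), are shown because C3 changed most, with a C/EBP match in capitals.
C3: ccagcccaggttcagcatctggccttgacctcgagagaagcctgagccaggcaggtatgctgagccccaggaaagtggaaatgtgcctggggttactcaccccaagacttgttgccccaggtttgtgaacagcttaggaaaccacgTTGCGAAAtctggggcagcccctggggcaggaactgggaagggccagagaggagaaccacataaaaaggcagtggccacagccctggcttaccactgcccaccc
The match, at -104 to -97, was the only one of the 5 motifs found there, and a C/EBP match was present in 9.22% of promoters. The stretches before C4a and C3ar1 held no match to any of the 5, which says only that these letters are not in this window.

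C3ar1, the receptor for C3a, is found on microglia and other myeloid cells, and it was the least abundant of the 6 genes in R237H rats. In males at P56 it measured 1.36, 1.30, 1.13 and 1.38 TPM in WT rats and 10.9, 12.5, 11.2 and 11.7 TPM in R237H rats. In females at P56 it measured 1.43, 1.42, 1.48 and 1.47 TPM in WT and 10.1, 12.5, 10.8 and 13.3 TPM in R237H rats. The values were tight, with a coefficient of variation of 6.13% among R237H males against 65.4% for C3 in the same rats. For C3ar1 at P56 the log2 fold change was 2.82 ± 0.14 in males (edgeR FDR = 8.22e-07) and 2.71 ± 0.11 in females (FDR = 1.64e-07), the smallest of the 6 in both sexes.

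At P21 C3ar1 measured 1.83, 1.33, 1.61 and 1.46 TPM in WT males and 6.71, 7.30, 5.76 and 5.91 TPM in R237H males. It measured 1.73, 1.73 and 2.06 TPM in WT females and 4.79, 9.08, 8.13, 7.99 and 7.53 TPM in R237H females. R237H female replicate 1 was the lowest R237H rat and still lay above every WT rat. The log2 fold change was 2.04 ± 0.12 in males (edgeR FDR = 1.20e-07) and 2.13 ± 0.25 in females (FDR = 2.49e-04) at P21. Between the ages the R237H mean was 1.80 times higher at P56 in males and 1.56 times higher in females, while the WT mean was 0.830 and 0.788 times its P21 value.

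**Figure D2:**
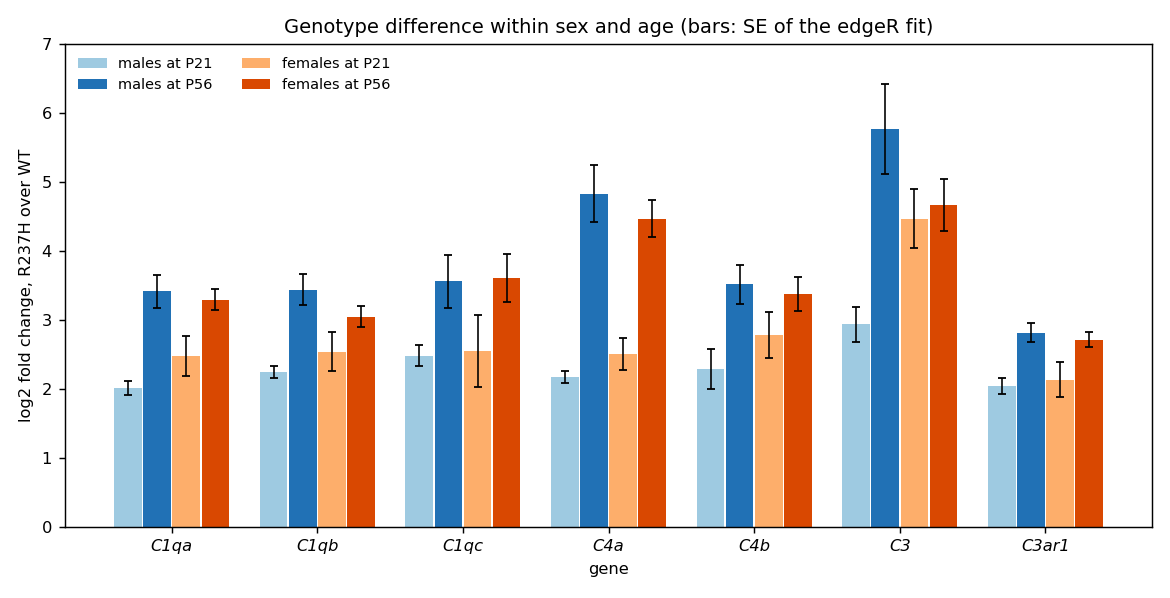
log2 fold change of R237H over WT for the 6 genes and C4b in males and females at P21 and P56 (bars), with the SE of the edgeR fit as error bars. Between P21 and P56 C4a goes from 2.17 to 4.83 in males and from 2.501 to 4.47 in females, and C3 from 2.94 to 5.77 in males and from 4.47 to 4.66 in females.

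Whether the genotype difference was larger at P56 than at P21 was tested as an interaction of age and genotype over the 16 rats of each sex. In males 5 of the 6 genes passed with a larger difference at P56, against 5.81% of all genes tested, and in females 1 of 6 did, against 1.49%. Here too a gene that changed was more likely to qualify as a member, so nothing is read from these counts against the shares. C4a passed in both sexes, with its log2 fold change larger by 2.65 ± 0.40 in males (edgeR FDR = 3.17e-04) and by 1.97 ± 0.33 in females (FDR = 0.00273). In males C1qa was larger by 1.38 ± 0.27 (FDR = 0.00195), C1qb by 1.17 ± 0.24 (FDR = 0.00301), C3 by 2.82 ± 0.67 (FDR = 0.00726) and C3ar1 by 0.75 ± 0.18 (FDR = 0.00657). C1qc, at 1.05 ± 0.43 in males, had an FDR of 0.0874. In females C1qa differed by 0.82 ± 0.31 (FDR = 0.124), C1qb by 0.52 ± 0.30 (FDR = 0.344), C1qc by 1.06 ± 0.62 (FDR = 0.335), C3ar1 by 0.58 ± 0.26 (FDR = 0.201) and C3 by 0.21 ± 0.53 (FDR = 0.863).

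The interaction moved when the libraries over 100 TPM of choroid plexus markers were left out. In males 4 of 6 genes then passed, with C3 larger at P56 by 3.54 and C4a by 3.29, while C3ar1 (0.57, edgeR FDR = 0.0499) and C1qc (1.30, FDR = 0.0804) did not pass. In females C4a passed at 2.35 (FDR = 0.00455), and C1qa was at 1.26 (FDR = 0.0383), C1qc at 1.998 (FDR = 0.0489), C1qb at 0.89 (FDR = 0.137), C3ar1 at 0.63 (FDR = 0.205) and C3 at 0.45 (FDR = 0.751). The number of all genes passing in either direction also depended on single rats. In females it was 333, and it was 130, 141 and 178 without WT replicate 3, 1 or 2 at P21, 168 without R237H replicate 4 at P21, 182 and 188 without R237H replicate 4 or 2 at P56, and 192, 195 and 220 without WT replicate 2, 3 or 4 at P56. In males it was 1555, and it was 932 and 1008 without R237H replicate 4 or 3 at P21, 979 without WT replicate 2 at P21 and 1010 without R237H replicate 2 at P56. Some omissions raised the number, up to 2163 in males without WT replicate 3 at P56 and up to 468 in females without R237H replicate 3 at P56.

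These calls were not equally firm. In males C1qa, C1qb and C4a passed in each of 21 alternative settings, whereas C3 passed in 10 and C3ar1 in 9, with FDR up to 0.0185 and 0.0499. In females C4a passed in 20 of 21 and reached an FDR of 0.0119 without WT replicate 1 at P21. Whether the age effect itself differed between the sexes was not tested.

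No gene of 15419 tested at P56 and none of 15361 at P21 passed edgeR's interaction of sex and genotype, which is 0% of all genes at either age, and DESeq2 called 0 as well. At an unadjusted p under 0.05 edgeR found 310 and 458 genes, among them C3 at P21 as the 1 member. Both counts are below a share of 0.05 of the genes tested, the share such a threshold passes where no gene differs. At P56 the difference between the sexes (males minus females) was 0.08 ± 0.29 for C1qa, 0.35 ± 0.28 for C1qb, -0.10 ± 0.54 for C1qc, 0.33 ± 0.46 for C4a, 1.07 ± 0.71 for C3 and 0.07 ± 0.15 for C3ar1. The interval is wide for C3, and a p that misses the threshold does not show that the sexes were alike.

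The early and the central components were compared within each library, as log2 ratios of counts, which do not depend on how libraries are scaled. Each test permuted genotype within sex over 16 rats (exact, two-sided), where the smallest p that can be reached is 4.08e-04 at P56 and 2.55e-04 at P21. C4a rose against C1qb at P56, by 1.46 ± 0.25 on the log2 scale (exact permutation p = 4.08e-04, adjusted over the 14 ratios to 0.00179), with the genotypes apart in both sexes. At P21 the same ratio differed by -0.03 ± 0.08 (exact permutation p = 0.704), so a difference between the changes of C4a and C1qb was not detectable at that age.

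C3 rose against C1qb at both ages. The log2 ratio was higher in R237H rats by 1.80 ± 0.38 at P56 (exact permutation p = 8.16e-04, adjusted 0.00190) and by 1.26 ± 0.22 at P21 (exact permutation p = 7.65e-04, adjusted 0.00190). By sex, the P56 difference was 2.10 in males and 1.49 in females, and the P21 difference 0.68 in males and 1.84 in females. The genotypes were apart in females at both ages and overlapped in males, where R237H replicate 4 at P56 had a log2 ratio of -0.85 against 0.60 to 1.37 in the other R237H males and -2.64 to -0.67 in WT males. Without the libraries over 100 TPM of choroid plexus markers the difference was 2.29 at P56 and 1.41 at P21.

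C3 was set against C4a in the same way. At P21 C3 rose more than C4a in R237H rats, by 1.29 ± 0.23 on the log2 scale (exact permutation p = 2.55e-04, the smallest possible, adjusted 0.00179), and the genotypes were apart in both sexes. At P56 the log2 ratio of C3 to C4a differed by 0.33 ± 0.28 (exact permutation p = 0.255) and the genotypes overlapped. The receptor rose less than C1qb at P56, though their ratio overlapped between the genotypes in each sex. The log2 ratio of C3ar1 to C1qb was lower in R237H rats by a log2 difference of -0.49 ± 0.16 at P56 (exact permutation p = 0.00653, adjusted 0.0131), and it differed by -0.30 ± 0.20 at P21 (exact permutation p = 0.144).

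**Figure D3:**
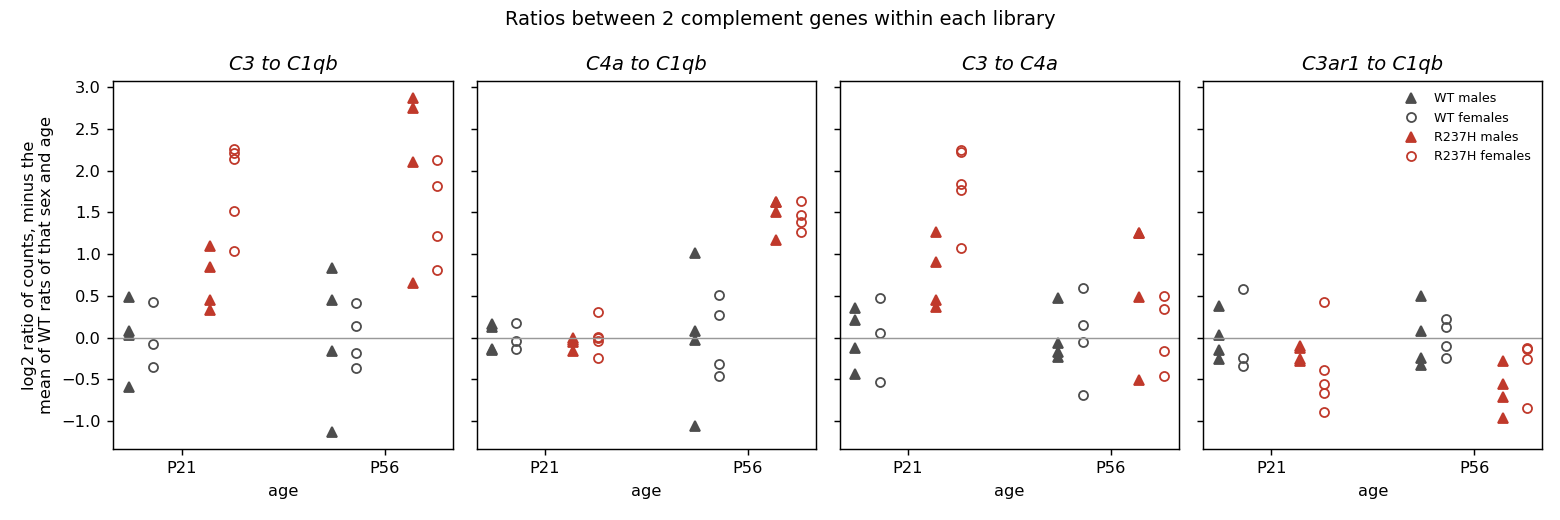
log2 ratio of the counts of 2 genes in each rat, minus the mean of the WT rats of that sex and age, at P21 and P56 (triangles, males; circles, females; grey, WT; red, R237H). The C4a to C1qb ratio of R237H rats lies around 0 at P21 and between 1.17 and 1.64 at P56, and the C3 to C4a ratio of R237H rats lies above 0 at P21 and on either side of 0 at P56.

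Markers of microglia, the main source of C1q in brain, also rose. Of 14 listed microglia markers 12 were measured, and 10 increased and none fell in each sex at P56. The median log2 fold change of the 12 was 1.20 in males and 0.98 in females. Among all genes tested at that age, the share called as an increase was 16.8% for males and 17.0% for females. A listed marker of any cell type was more likely to be matched to an identifier if it changed. Nothing is thus read from 10 of 12 against these shares. Tyrobp, an adaptor of microglial receptors, increased by 2.504 in males and 2.53 in females at P56, Aif1 by 2.41 and 2.24, Csf1r, the receptor for CSF1, by 2.30 and 2.05, and Laptm5 by 1.92 and 1.62. Tmem119 at 0.50 and 0.19 and Trem2 at 0.69 and 0.65 did not pass. The summed level of the 12 markers was 188 to 313 TPM in WT males and 936 to 1287 TPM in R237H males at P56, and 285 to 305 and 602 to 764 TPM at P21. In females it was 248 to 323 TPM in WT and 780 to 1172 TPM in R237H rats at P56, and 265 to 268 and 585 to 802 TPM at P21.

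C1qb rose more than Csf1r in the same libraries. The log2 ratio of C1qb to Csf1r was higher in R237H rats by 1.07 ± 0.08 at P56 (exact permutation p = 4.08e-04, adjusted 0.00179) and by 0.80 ± 0.12 at P21 (exact permutation p = 5.10e-04, adjusted 0.00179). Both sexes at P56 and the P21 males had the genotypes apart, while the P21 females overlapped, with R237H replicate 5 at -2.013 and WT replicate 2 at -1.9998. Against Aif1 in place of Csf1r the differences were 0.90 at P56 (exact permutation p = 4.08e-04) and 0.37 at P21 (exact permutation p = 0.0344), so the size at P21 depended on the marker.

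Other cell types moved too. The 7 measured astrocyte markers had a median log2 fold change of -0.57 in males and -0.40 in females at P56, with Gfap the only 1 that increased and Aldoc and Gja1 decreased in both sexes. The summed level of the 7 was 2651 to 3433 TPM in WT and 5721 to 7285 TPM in R237H males at P56 and 2849 to 3427 and 5269 to 7093 TPM in females. That sum includes Gfap, which alone measured 290 to 584 TPM in WT and 3172 to 5257 TPM in R237H males at P56. In females Gfap measured 387 to 526 and 2845 to 4760 TPM, so the higher sum does not describe the other markers. Of 12 markers of blood-borne and border immune cells only Cd163, Mrc1 and Lyve1 were measured, and their sum was 1.48 to 5.26 TPM in WT and 12.9 to 45.3 TPM in R237H males at P56, and 1.70 to 3.86 and 18.1 to 38.3 TPM in females. At P21 that sum was 3.72 to 5.18 TPM in WT and 11.7 to 17.1 TPM in R237H males, and 5.19 to 8.28 and 14.1 to 20.6 TPM in females. The higher sum does not describe each marker at P56. In females at P56 Mrc1 increased by 3.28 and Cd163 by 2.68 on the log2 scale. Lyve1, at 0.47 (edgeR FDR = 0.173), overlapped between the genotypes there. In males at P56 1 of the 3 did not pass. The 4 measured red blood cell markers went the other way, from 451 to 1793 TPM in WT to 76.3 to 145 TPM in R237H males at P56 and from 349 to 767 to 74.0 to 108 TPM in females, and overlapped between the genotypes at P21. The part of these shifts in the complement values was not tested.

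Of 56 other complement genes listed, 14 could be matched to an identifier, and since symbols came from tables sorted by FDR, a gene that changed was more likely to have one. Among these 14 there were 12 increases and 2 decreases in either sex at P56, 12 and 1 in P21 males, and 11 and 0 in P21 females. Of all genes tested, 16.8% increased in P56 males, 17.0% in P56 females, 12.4% in P21 males and 7.06% in P21 females. Decreases over all genes were 1677 of 15097, 1676 of 15033, 721 of 14953 and 114 of 15149 in the same order. Nothing is read from the counts of the 14 against these, because of how symbols were obtained. The proteases that C1q activates, C1r and C1s, increased by 1.85 and 3.05 on the log2 scale in males at P56 and by 1.96 and 2.83 in females, and Fcna, a ficolin of the lectin pathway, by 2.71 and 2.92. The alternative pathway, which amplifies C3 cleavage, increased at P56 in all 3 genes listed, Cfb by 2.65 and 2.56, Cfd by 3.08 and 2.94, and Cfp by 2.59 and 2.17. At P21 these 3 increased in males, by 1.61 to 2.25, and Cfb and Cfp in females, where Cfd at 1.19 had an FDR of 0.0834.

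Receptors that bind C3 fragments on phagocytes increased as well. Itgam, which pairs with Itgb2 to form complement receptor 3, increased by 3.03 in males and 2.56 in females at P56, Itgb2 by 2.25 and 1.89, and Itgax, the partner in complement receptor 4, by 4.97 and 4.81. C5ar2, a receptor for C5a, increased by 2.69 and 2.47. Regulators were divided. Serping1, the C1 inhibitor, increased by 3.62 in males and 4.09 in females at P56 and by 3.23 and 3.17 at P21. Vtn, which binds the terminal complex, decreased by 0.996 and 1.10 at P56, and Susd4 by 0.93 and 0.81. None of 8 terminal components was matched, so the end of the cascade was not analysed here.

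**Figure D4:**
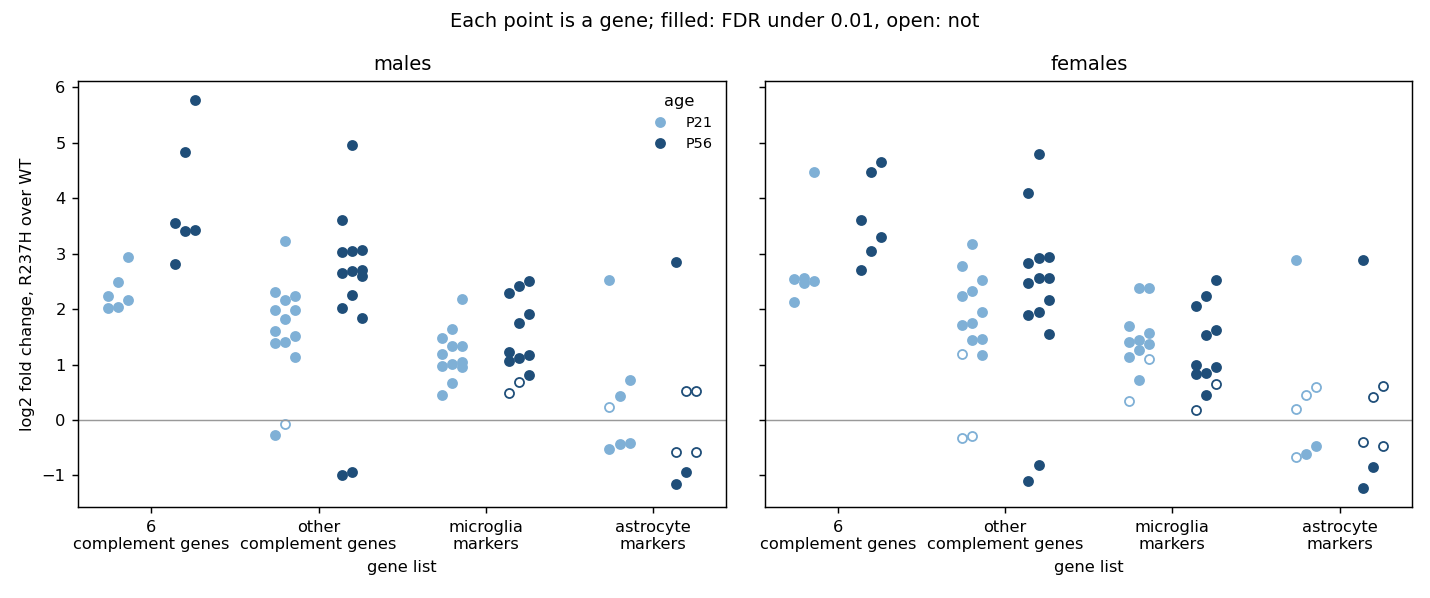
log2 fold change of R237H over WT for each measured gene of 4 lists (points), in males and females at P21 (light) and P56 (dark), filled where the edgeR FDR is under 0.01. The 6 genes at P56 lie between 2.71 and 5.77, and the microglia markers between 0.19 and 2.53.

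The genes whose rat-to-rat deviations were most like those of 3 of the members differed between them. The measure was Pearson's correlation over 32 rats of deviations from the 8 group means, among 2985 genes with a symbol and a mean of at least 50 counts. For C1qb they were Cd37 (0.92), Unc93b1 (0.92), Pld4 (0.90) and Sipa1 (0.89). For C3 they were Ncf1 (0.79), Trpm2 (0.78), Anxa3 (0.78) and Myo1f (0.72). For C4a they were Icam1 (0.79), Pcolce (0.79), Fhod1 (0.78) and Tfpi2 (0.75). Among the members, C3 and C4a correlated at 0.71, C3 and C1qb at 0.48, and C3ar1 at no more than 0.19 with any of the other 5. These values describe shared deviation within libraries and carry no test.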

How the data were processed

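PolyA-selected, stranded libraries were made from the hippocampus of 32 rats. Reads were trimmed with Skewer, aligned with STAR, quantified with RSEM and, for the study's own comparisons, tested with edgeR (bcl2fastq 2.20.0.422 for base calls, per the submitters' processing notes). The genome build is not given in the sources used here. The authors deposited 2 tables from RSEM, the unscaled expected count of each gene and its TPM. Of the expected counts, 5.68% were not whole, and all were rounded here. Totals were 21580400 to 55544900 per library.

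R237H was compared with WT within each sex and age by edgeR 4.0.16 in R 4.3.3 (quasi-likelihood F-test, default low-count filter, TMM normalization, FDR under 0.01 over all genes tested). Interactions used 16 rats each. Ratios were log2(count + 0.5) of 2 genes, tested by exact permutation with Benjamini-Hochberg values over 14. The method was tested on simulated data. Symbols came from the study's supplementary tables and cover 3289 of 23822 identifiers (13.8%). Promoter sequences are from RefSeq (GRCr8) and were given for 5 of the 6 members, C1qc not among them, and for C4b. The members and gene lists were chosen with earlier results of these data known. Genes named beyond the members are C4b, Gfap, up to 4 of each list with the smallest FDR in males at P56 or with no call in both sexes at P56, and the 4 most like C1qb, C3 and C4a. Additional genes of the lists were named after their values were seen, to name members of a list that changed, and some genes under this rule are not named. Tried as alternatives were edgeR's likelihood-ratio test, DESeq2 1.42.0 and limma 3.58.1 on log2(TPM + 0.1), scaling by RLE, a filter that was absent or asked for 10 counts in each rat, a threshold of 0.05, a single model of the 32 rats, a block on the title number, the sum of C4a and C4b, other reference genes or a pseudocount of 5 for ratios, and each rat's omission in turn. Omission of libraries with over 100 TPM of choroid plexus markers was added after seeing the data.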

Additional observations from a re-analysis of the deposited data

Results flagged for a closer look

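The genotype difference of 6 results differed between P21 and P56 by a test of the difference itself, edgeR's interaction of age and genotype over 16 rats at an FDR under 0.01. In males the log2 fold change was larger at P56 by 1.38 for C1qa, 1.17 for C1qb, 2.82 for C3, 0.75 for C3ar1 and 2.65 for C4a. In females it was larger by 1.97 for C4a. P21 and P56 rats were different animals, and effects of age and of collection cannot be told apart. Each of the 6 genes was tested in each group of 4 or 5 rats for a rat far from the others. Of these 42 tests, 0 found one by Dixon's 95% criterion, where chance gives about 1 in 20. The tests share rats, and WT females at P21 were too few to be tested.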

How the results depend on the processing

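All 6 genes increased in the main comparison of each sex and age, and 397 of 406 alternative values of a member's fold change kept their direction and their call, none reversing. The 9 that lost the call were in females at P21, 8 for C1qc and 1 for C3ar1. When the title number served as a replicate block, 6 genes passed in males at P56, 6 in females at P56 and 4 in females at P21, where C1qc (2.21, edgeR FDR = 0.0218) and C3ar1 (2.13, FDR = 0.0141) did not pass. Rats sharing a title number did not all deviate together, so the numbers are not a shown pairing, and P21 males share a single number. The block lowered the calls over all genes that increased from 1070 to 396 in females at P21, from 2550 to 1441 in females at P56 and from 2531 to 2148 in males at P56. Among females at P56, only R237H and WT replicates 1, and R237H and WT replicates 3, shared a number across genotypes. Among females at P21, R237H replicates 3 and 4 shared one with WT replicate 1, and R237H replicate 5 with WT replicate 3. Females without such a partner do not inform the blocked genotype difference, so it rested on fewer rats. With each rat left out in turn, the members passing the interaction of age and genotype ran from 3 to 5 in males and from 0 to 1 in females. The count was 0 without WT female replicate 1 at P21. In males it was 3 without WT replicate 1, R237H replicate 2 or R237H replicate 3 at P56, or without WT replicate 1, WT replicate 3, R237H replicate 3 or R237H replicate 4 at P21. Without single rats the log2 ratio of C1qc to C1qb at P56 ran from 0.31 to 0.49, and reached an exact permutation p of 0.0331 without WT male replicate 4. The log2 ratio of C3ar1 to C1qb at P21 ran from -0.41 to -0.16, and reached an exact permutation p of 0.00735 without R237H female replicate 5. The causes were not tested. Log2 fold changes on the TPM scale understate changes of low genes. At a given level, counting error is larger in the 2 libraries with fewer than 30000000 counts than in the others.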
